A study of Mus musculus with 6 samples.

Results

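DNA replication and mitosis genes, 59 of the 25722 genes listed in each count table, were followed in bulk RNA sequencing of mouse BMSCs, adherent cells grown from bone marrow. The members were the rows whose name column equalled 1 of 59 symbols, 27 for the copying of DNA in S phase and 32 for mitosis. The cells were wild-type, of C57BL/6 mice and labelled BM-MSCs, and all had been kept at low oxygen with a ROCK inhibitor, without IL-17 or IFNγ. The 3 control libraries came from cells given the solvent DMSO, and the 3 RA libraries from cells given all-trans retinoic acid (RA) at 1 µM, both for 48 h according to the labels. The methods of the study give a lower dose and a shorter time, and the labels speak of 2 biological replicates although there are 3 libraries in each group. As no label says that the libraries came from separate cultures or mice, each p-value measures only the spread between these libraries, which may be technical. The libraries are called control 1 to 3 and RA 1 to 3.

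A cell that divides first loads and fires the MCM helicase, makes nucleotides and copies its DNA, and then condenses and separates its chromosomes. Many genes of the first step are switched on by E2F transcription factors at the passage from G1 to S phase, while many genes of mitosis are switched on later, by MuvB complexes with B-Myb and FoxM1 that read a short promoter element, the CHR, often next to CCAAT boxes bound by NF-Y. In a cell that leaves the cycle both groups are held down, so that their mRNA in a bulk sample follows the share of cells in cycle as well as the amount per cell. In bulk RNA, fewer cycling cells and less RNA per cell cannot be told apart.

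The promoter letters of the replication and the mitosis genes differed for a part of each list. Promoters (250 bases before to 50 bases after the start of the gene, from RefSeq on GRCm38.p6) were found for 49 members, 23 of replication and 26 of mitosis. The entries missing were those of Mcm4, Gins1, Gins2, Ccne2, Ccna2, Cdc25c, Aurkb, Kif20a, Tpx2 and Foxm1. Stretches of 160 bases ending just before the start are printed 5′ to 3′ in the direction of the gene, with E2F sites and CHR elements in capitals. For replication, Mcm5 (chr8:75109349-75109508, plus strand), Mcm6 (chr1:128359706-128359865, minus strand), Cdc6 (chr11:98907991-98908150, plus strand) and Pola1 (chrX:93632156-93632315, minus strand) are shown, as each holds an E2F site there.
Mcm5: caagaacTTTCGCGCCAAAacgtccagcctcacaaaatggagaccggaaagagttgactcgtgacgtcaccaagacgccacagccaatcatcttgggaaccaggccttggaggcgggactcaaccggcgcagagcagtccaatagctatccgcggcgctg
Mcm6: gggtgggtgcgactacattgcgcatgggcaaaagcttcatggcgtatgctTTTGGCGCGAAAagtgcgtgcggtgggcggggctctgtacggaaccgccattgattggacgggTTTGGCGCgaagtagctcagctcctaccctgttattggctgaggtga
Cdc6: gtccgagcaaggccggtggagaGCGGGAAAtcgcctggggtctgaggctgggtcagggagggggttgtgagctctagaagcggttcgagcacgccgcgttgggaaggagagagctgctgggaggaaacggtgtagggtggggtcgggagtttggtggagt
Pola1: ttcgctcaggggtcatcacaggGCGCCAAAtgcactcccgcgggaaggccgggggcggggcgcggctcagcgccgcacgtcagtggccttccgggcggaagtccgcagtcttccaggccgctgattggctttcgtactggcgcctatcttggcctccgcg
For mitosis, Cdk1 (chr10:69352913-69353072, minus strand), Cdc20 (chr4:118437344-118437503, minus strand), Top2a (chr11:99024190-99024349, minus strand) and Kif11 (chr19:37376222-37376381, plus strand) are shown, as each holds a CHR close to the start.
Cdk1: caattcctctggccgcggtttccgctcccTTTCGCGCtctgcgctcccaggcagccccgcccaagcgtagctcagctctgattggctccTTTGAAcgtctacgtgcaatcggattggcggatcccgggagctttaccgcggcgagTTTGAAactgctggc
Cdc20: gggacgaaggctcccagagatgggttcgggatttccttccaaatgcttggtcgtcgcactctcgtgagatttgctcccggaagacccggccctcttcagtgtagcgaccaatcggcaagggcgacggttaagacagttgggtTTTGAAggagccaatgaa
Top2a: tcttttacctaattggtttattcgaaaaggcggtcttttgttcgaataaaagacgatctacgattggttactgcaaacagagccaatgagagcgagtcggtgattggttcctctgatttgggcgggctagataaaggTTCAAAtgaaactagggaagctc
Kif11: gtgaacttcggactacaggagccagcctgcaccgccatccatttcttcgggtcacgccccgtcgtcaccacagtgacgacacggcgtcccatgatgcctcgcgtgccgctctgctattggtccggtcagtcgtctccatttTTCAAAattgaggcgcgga
In Mcm5 and in the first run of capitals of Mcm6, 2 E2F sites on opposite strands overlap. In Pola1 and Cdc6 the site is written on the minus strand of the gene, as is the CHR of Top2a and Kif11.

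The E2F site was searched on both strands as TTTCCCGC or as TTTGGCGC or as TTTCGCGC or as TTTGCCGC. It was found in 9 of 23 replication promoters (39.1%), namely those of Mcm3, Mcm5, Mcm6, Mcm7, Cdc6, Cdt1, Pola1, Lig1 and Uhrf1, and in 1 of 26 mitosis promoters (3.8%), that of Cdk1. Of the 27025 genes with a promoter of this length, 2.6% held it, and of the genes tested for expression 4.6%. The CHR, searched as TTTGAA on both strands, was found in 18 of 26 mitosis promoters (69.2%). It was found in 3 of 23 replication promoters (13.0%), those of Mcm2, Cdc45 and Fen1, against 20.2% of all genes and 14.5% of the genes tested. In 17 of the 18 mitosis genes a CHR began between 40 bases before and 50 bases after the start, the exception being Mki67. The CCAAT box, searched as CCAAT on both strands, was found in 60.9% of replication and 73.1% of mitosis promoters. It was found in 41.1% of all genes and 42.9% of the genes tested. Of the 49 members with a promoter, Cdk1 alone held both an E2F site and a CHR. Other genes of the same processes that are not members were searched in the same way, with an E2F site in 40.5% of 37 replication and 10.4% of 67 mitosis promoters, and a CHR in 16.2% and 56.7%. These are matches of letters and not measured binding.

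**Figure D1:**
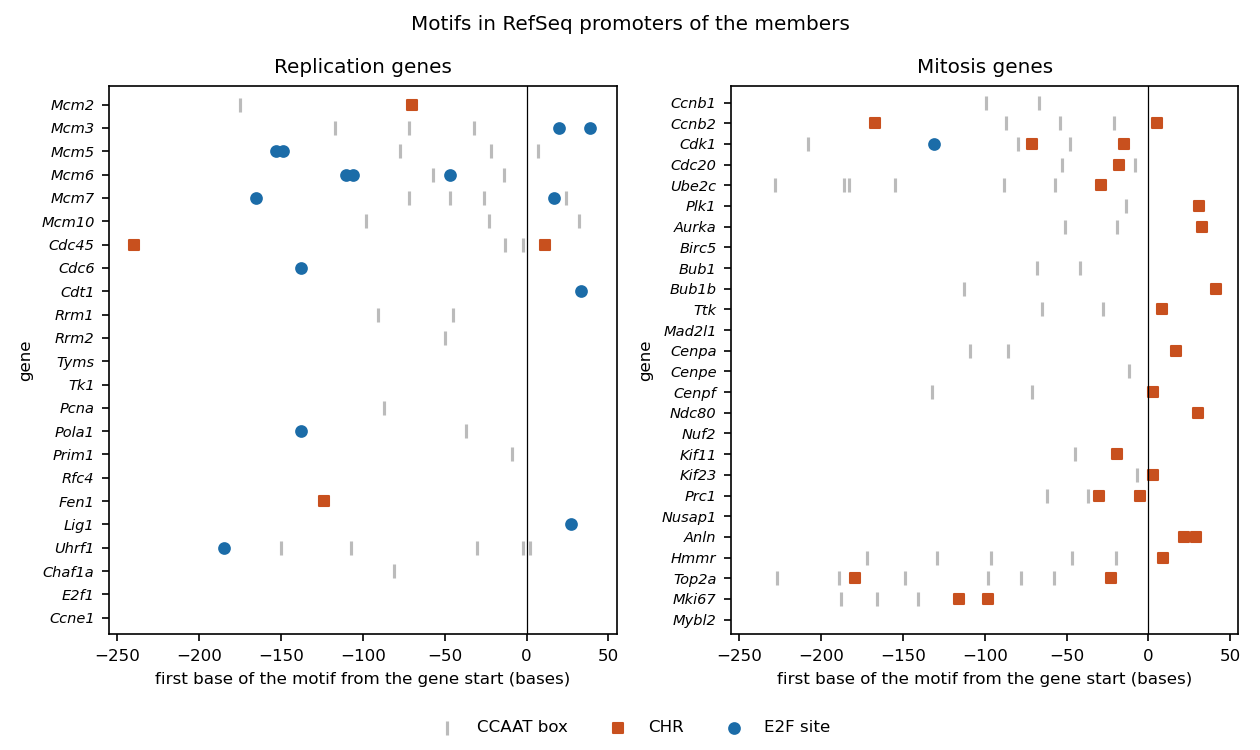
Position of the first base of each E2F site (blue circles), CHR (orange squares) and CCAAT box (grey bars) from the start of the gene, in bases, for the 23 replication and 26 mitosis members with a promoter, 1 row for each gene. E2F sites lie in 9 replication rows and in the Cdk1 row, and CHR elements of 17 mitosis genes lie within 40 bases before or 50 bases after the start.

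The libraries held between 14737636 and 18511905 counts, and all 59 members passed the filter on low counts. The lowest member count was 11, for Cdc25c in RA 3. Control 2, RA 1 and RA 2 stood apart from control 1, control 3 and RA 3. In a principal component analysis of 1000 genes chosen by variance, 49 members among them, the leading axis held 57.18% of the variance and divided the libraries in this way, also when the cell cycle lists were taken out. No label names this division, it runs across the treatment, and it was known from earlier results of these data, so that values between the sets are given without a test. The treatment labels were checked on direct targets of the retinoic acid receptors, chosen after their values were seen. Cyp26b1, an enzyme that breaks down RA, stood at 4.97, 5.96 and 4.68 CPM in control 1, 2 and 3 and 124, 109.6 and 87.1 CPM in RA 1, 2 and 3. Rarb, a receptor gene that RA switches on, had 4, 13 and 2 counts in control and 127, 94 and 66 counts in RA, so that control 2 lay with the controls and RA 3 with the RA libraries. Whether the sets were handled apart was not tested. The libraries are called here the first set (control 2, RA 1 and RA 2) and the second set (control 1, control 3 and RA 3). Against the label BM-MSCs, all 14 macrophage markers were expressed, summing to between 20510 and 23180 CPM (counts scaled to the size of the library) in every library. Of 16 mesenchymal markers 13 passed the filter, while Lum, Thy1 and Nt5e did not, and their sum ran from 2300 to 4543 CPM in the first set and from 1737 to 2612 CPM in the second (2360 to 4543 CPM in control and 1737 to 3537 CPM in RA). The part of these cell types in the results below was not tested.

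Member genes took a larger share of the counts in the first set. They made up 0.104% of counts in control 1, 0.103% in control 3 and 0.0925% in RA 3, against 0.263% in control 2, 0.410% in RA 1 and 0.425% in RA 2. All 59 members lay higher in each library of the first set than in any library of the second, where 23.4% of all 13842 tested genes did so and 24.4% did the opposite. The median difference between the sets was 1.93 on the log2 CPM scale for replication genes (3.81-fold) and 1.94 for mitosis genes (3.85-fold), and −0.01 for all tested genes. The range ran from 0.63 for E2f1, an activator of the G1/S genes, to 2.93 for Cdc6, the loader of the MCM helicase, and within the mitosis genes from 0.76 for Cenpa, the centromere histone, to 2.45 for Mki67, the coat protein of mitotic chromosomes. Most macrophage markers lay the other way, as 10 of 14 were lower and 2 higher in the first set without overlap, with a median difference of −0.42 on the log2 scale, while their sums overlapped at 20510 to 21700 CPM in the first set and 20930 to 23180 CPM in the second. Of the 13 mesenchymal markers tested 5 were higher and 0 lower in the first set without overlap, with a median difference of 0.64 on the log2 scale (1.56-fold). Osteoclast markers, of which 4 of 6 were tested, summed to 183.9 to 358.5 CPM in the first set and 89.4 to 126 CPM in the second, but of the 4 genes 2 were higher and 2 lower in the first set without overlap, with a median difference of −0.12 on the log2 scale. Markers of erythroid, B and T cells summed to less than 6 CPM in every library and were lower in the first set. Endothelial markers summed to 6.86 to 11.5 CPM in the first set and 15.8 to 17.1 CPM in the second, although of the 3 genes tested 1 was lower and 0 higher in the first set without overlap, with a median difference of −0.05 on the log2 scale. Neutrophil markers summed to 3.36 to 4.36 CPM in the first set and 3.16 to 4.03 CPM in the second, with 1 of the 3 genes tested higher and 1 lower without overlap.

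**Figure D2:**
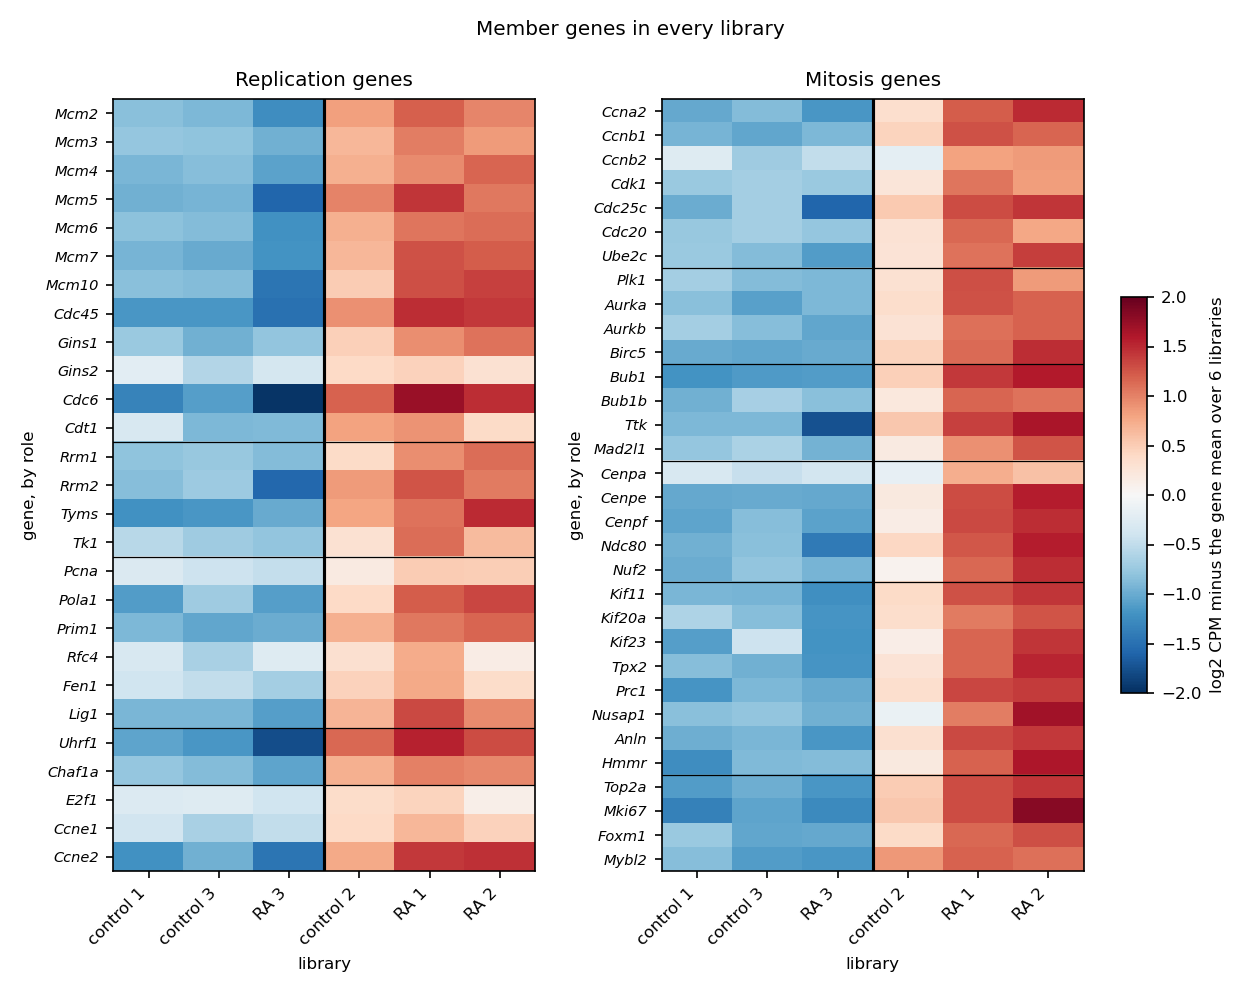
Relative level of each of the 59 members (rows, ordered by role, thin lines between roles) in each of the 6 libraries (columns), as log2 CPM minus the mean of that gene over the libraries, with red for higher and blue for lower. The thick line parts the second set on the left from the first set on the right, and 56 of 59 rows turn from blue to red there, the exceptions being Ccnb2, Cenpa and Nusap1, where control 2 lies just below the mean of the gene.

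For RA against control, the comparison of the study, 0 of the 59 members were called by edgeR's quasi-likelihood test (Benjamini-Hochberg adjusted p under 0.05 and at least 1.5-fold), against 0.0433% of all tested genes (0.0361% higher and 0.00722% lower after RA). DESeq2 and edgeR's likelihood ratio test also called 0 members, with 14 and 9 of 59 at an unadjusted p under 0.05, against 5.94% and 4.96% of all genes. The fitted log2 fold change was above 0 for all 59, where it was above 0 for 47.3% of all tested genes. All 59 also lay higher in the first set, which holds RA 1 and RA 2 but only control 2 of the controls. That imbalance alone raises the fold change of such genes, so the count of 59 cannot tell RA from the division of the libraries. Once the library set was added as covariate, the fitted log2 fold change fell below 0 for 7 of the 59. All 7 were replication genes (Mcm2, Mcm5, Cdt1, Rrm2, Fen1, Uhrf1 and E2f1). Without that covariate the median log2 fold change was 0.78 for replication genes (0.12 to 1.15) and 1.23 for mitosis genes (0.70 to 1.5). It was −0.02 for all tested genes. With the covariate the medians were 0.10 for replication and 0.45 for mitosis genes. The smallest adjusted p of a member in the edgeR test was 0.795, and 3 members, Nusap1, Ccnb2 and Cenpa, had an unadjusted p under 0.05, a level that 5.25% of all genes reached. No member had all its RA libraries above all its controls, since control 2 stood high and RA 3 low, whereas 5.71% of all genes were higher and 6.87% lower after RA without overlap. With 3 libraries against 3, an exact permutation test of a single gene could not go below p = 0.10. The medians depended on single libraries. For replication genes the median was 1.52 without control 2 and 1.22 without RA 3, and 0.50, 0.51 and 0.42 without control 1, control 3 and RA 1. For mitosis genes it was 1.80 without control 2 and 1.68 without RA 3, and between 0.84 and 1.01 without any of the others. The replication median stayed below the mitosis median in all 6 of these fits, by 0.28 without control 2 at the least. Without control 2, 33 members reached an unadjusted p under 0.05 against 8.21% of all genes (smallest edgeR adjusted p 0.526), and without RA 3 it was 41 against 14.4% (smallest edgeR adjusted p 0.181), with 0 called in either case.

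The genes that load and start the helicase are given first, with CPM always in the order of libraries 1, 2 and 3. Mcm6, a subunit of the ring-shaped MCM helicase and the strongest of this group per kb of exon, stood at 49.4, 142 and 47.9 CPM in control and 184, 189.5 and 37.7 CPM in RA. Mcm5, another subunit of the same ring, stood at 26.1, 101 and 26.5 CPM in control and 137, 106 and 16.8 CPM in RA. Mcm10, which joins the ring when the origin fires, stood at 7.77, 20.0 and 7.63 CPM in control and 34.5, 36.5 and 5.05 CPM in RA. In all 3 genes control 2 lay with RA 1 and RA 2 and RA 3 was the lowest library, so that the groups overlapped. Cdc6, which places the ring on the origin together with Cdt1, stood at 2.59, 15.5 and 3.09 CPM in control and 22.7, 19 and 1.64 CPM in RA. It had the widest spread over the libraries among the replication genes, and its mean log2 CPM was higher in the first set by 2.93, or 7.62-fold. Cdt1 itself stood at 24.4, 53.1 and 16.2 CPM in control and 56.8, 39.4 and 16.4 CPM in RA, so that RA 2 lay below control 2. The fitted log2 fold change after RA was 1.10 ± 0.74 (SE, n = 3 against 3) for Mcm10, 1.03 ± 1.01 for Cdc6 and 0.26 ± 0.56 for Cdt1, with edgeR adjusted p of 0.795, 0.818 and 0.911. With the library set as covariate these were 0.22, 0.02 and −0.22, and that of Cdt1 was also below 0 without RA 1 (−0.14) and without control 3 (−0.05). The group also holds Mcm2, Mcm3, Mcm4, Mcm7, Cdc45, Gins1 and Gins2, the rest of the helicase and its partners, whose fitted log2 fold changes lay between 0.26 for Gins2 and 1.07 for Cdc45. Of the exon bases of Gins2, 67.3% overlap Gse1 on the opposite strand, and it is not stated whether the counting used strand.

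Among the genes of nucleotide supply, Rrm2, the S phase subunit of ribonucleotide reductase, stood at 15.8, 51.3 and 17.1 CPM in control and 67.9, 58.5 and 9.48 CPM in RA. Tyms, which makes thymidylate, stood at 3.64, 15.1 and 3.78 CPM in control and 18.5, 24.6 and 4.23 CPM in RA. In both, the second set held the 3 lowest libraries, and RA 3 was the lowest of all for Rrm2 and the highest of its set for Tyms. Rrm1, the other subunit of the reductase, and Tk1, thymidine kinase, had fitted log2 fold changes of 0.91 and 0.78 after RA. At the fork, Pcna, the clamp of the polymerases, was the strongest of all members per length, with a mean of 77.1 CPM per kb of exon, and stood at 146, 201 and 133 CPM in control and 254, 250.1 and 127 CPM in RA. Pola1, the catalytic subunit of the polymerase that starts each strand, stood at 7.49, 21.7 and 9.97 CPM in control and 38.2, 41.5 and 7.64 CPM in RA, which gave the largest fitted log2 fold change of the replication genes (1.15 ± 0.67, SE, n = 3 against 3, edgeR adjusted p = 0.795). Pcna spread far less, with a difference between the sets of 0.79 on the log2 scale against 1.96 for Pola1. Prim1, Rfc4, Fen1 and Lig1, which prime, load the clamp, trim and join the new strands, had fitted log2 fold changes between 0.34 and 0.88. The exons of Fen1 overlap Gm10143 over 78.8% of their bases, and Tyms and Pcna have annotated pseudogenes that could share reads.

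Behind the fork, Uhrf1, which reads hemimethylated DNA, stood at 17.4, 80.4 and 16.0 CPM in control and 105, 89.7 and 10.5 CPM in RA. Chaf1a, a subunit of the histone chaperone CAF-1 whose exons overlap Ubxn6 over 52.5% of their bases, had a fitted log2 fold change of 0.68. Of the G1/S regulators, E2f1 stood at 36.8, 57.9 and 37.4 CPM in control and 60.9, 48.6 and 33.8 CPM in RA. The cyclin Ccne1, which drives the entry into S phase with Cdk2, stood at 10.9, 18.8 and 9.08 CPM in control and 22.7, 19.8 and 10.1 CPM in RA. Ccne2, its homologue, stood at 3.08, 12.5 and 3.71 CPM in control and 19.8, 20.3 and 2.59 CPM in RA. E2f1 and Ccne1 thus differed less between libraries than Ccne2. By the difference of mean log2 CPM, E2f1, Ccne1 and Ccne2 were 1.54-fold, 2.03-fold and 5.35-fold higher in the first set. After RA the fitted log2 fold change was 0.12 ± 0.27 (SE, n = 3 against 3) for E2f1, the smallest of all members, and 1.14 ± 0.83 for Ccne2, with edgeR adjusted p of 0.916 and 0.801. That of E2f1 was −0.11 with the library set as covariate and −0.074 without RA 1.

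Of the genes that start mitosis, Ccna2, the cyclin of S phase and of entry into mitosis, stood at 14.1, 36.3 and 15.8 CPM in control and 67.2, 81.5 and 12.8 CPM in RA. Ccnb1, the main mitotic cyclin, stood at 12.3, 31.9 and 11.3 CPM in control and 56.5, 52.3 and 12.4 CPM in RA. Ccnb2, a second B cyclin, stood at 16.2, 17.0 and 11.8 CPM in control and 34.2, 35.4 and 13.8 CPM in RA. For Ccnb2, control 2 lay close to control 1 and apart from RA 1 and RA 2, whereas for the other cyclins control 2 lay between the second set and the RA libraries of the first. Cdk1, the kinase these cyclins activate, stood at 18.6, 36.8 and 19.4 CPM in control and 65.5, 55.5 and 18.5 CPM in RA. Its partners Cdc25c, Cdc20 and Ube2c, which activate it or bring about the destruction of its cyclins, had fitted log2 fold changes between 0.90 and 1.15. Ccnb2 reached 0.89 ± 0.37 (SE, n = 3 against 3) with an unadjusted p of 0.048 and an edgeR adjusted p of 0.795. Ccnb1 and Ccnb2 have annotated pseudogenes that could share reads.

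The kinases and checkpoint genes were divided between the sets in the same way, with varying order inside each set. Plk1, a kinase of centrosome and spindle, stood at 12.3, 24.5 and 10.8 CPM in control and 48.8, 35.7 and 10.5 CPM in RA. Birc5, the survivin subunit of the chromosomal passenger complex, stood at 7.28, 20.2 and 7.15 CPM in control and 32.7, 41.5 and 7.30 CPM in RA. RA 1 and RA 2 lay above control 2 and the other libraries below it in both genes, and Aurka and Aurkb, the Aurora kinases, had fitted log2 fold changes of 1.19 and 1.03. Bub1, a kinase of the spindle checkpoint, stood at 6.44, 20.8 and 6.74 CPM in control and 40.1, 45.1 and 6.82 CPM in RA. Bub1b, which holds the anaphase-promoting complex in check, stood at 13.0, 29.2 and 16.0 CPM in control and 56.9, 53.9 and 14.2 CPM in RA. Ttk, the kinase at the top of the checkpoint, stood at 2.66, 7.45 and 2.68 CPM in control and 13.3, 16.1 and 1.43 CPM in RA. Ttk had the widest spread over the libraries among the mitosis genes on the log2 scale, with its lowest value in RA 3, while Bub1 and Bub1b lay closer together in the libraries of the second set, and Mad2l1, the checkpoint's Mad2 protein, had a fitted log2 fold change of 1.02.

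At the kinetochore and on the spindle, RA 1 and RA 2 stood well above control 2. Cenpe, the kinetochore motor, stood at 15.4, 36 and 15.5 CPM in control and 77.2, 92.9 and 15.3 CPM in RA. Tpx2, which builds spindle microtubules around chromosomes, stood at 19.5, 42.8 and 18.1 CPM in control and 79.4, 101 and 15.6 CPM in RA. Nusap1, which binds microtubules at the chromosomes, stood at 7.63, 12.6 and 7.91 CPM in control and 28.1, 44.4 and 6.96 CPM in RA. Nusap1 (ENSMUSG00000027306, chr2:119618298-119651244, plus strand, GRCm38) had the largest fitted log2 fold change of all members, 1.5 ± 0.62 (SE, n = 3 against 3, unadjusted p = 0.047, edgeR adjusted p = 0.795). Cenpa (chr5:30666777-30674830, plus strand) had 0.70 ± 0.29 (unadjusted p = 0.0483, edgeR adjusted p = 0.795). Cenpf, Ndc80 and Nuf2 of the kinetochore, and Kif11, Kif20a, Kif23, Prc1, Anln and Hmmr of the spindle and of cytokinesis, had fitted log2 fold changes between 0.97 and 1.49.

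On the chromosomes, Top2a, the topoisomerase that untangles sister DNA, stood at 45.7, 141 and 50.3 CPM in control and 244, 268 and 44.3 CPM in RA. Mki67 stood at 61.0, 225 and 74.7 CPM in control and 385, 551 and 64.1 CPM in RA, and was the strongest of the mitosis genes per length, with 22.6 CPM per kb of exon over all libraries. Both stood lowest in the second set, where their libraries lay close together, and highest in RA 2. Foxm1 and Mybl2, the factors that switch on mitosis genes, had fitted log2 fold changes of 1.11 and 0.77, the latter the lowest of the mitosis genes after Cenpa.

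**Figure D3:**
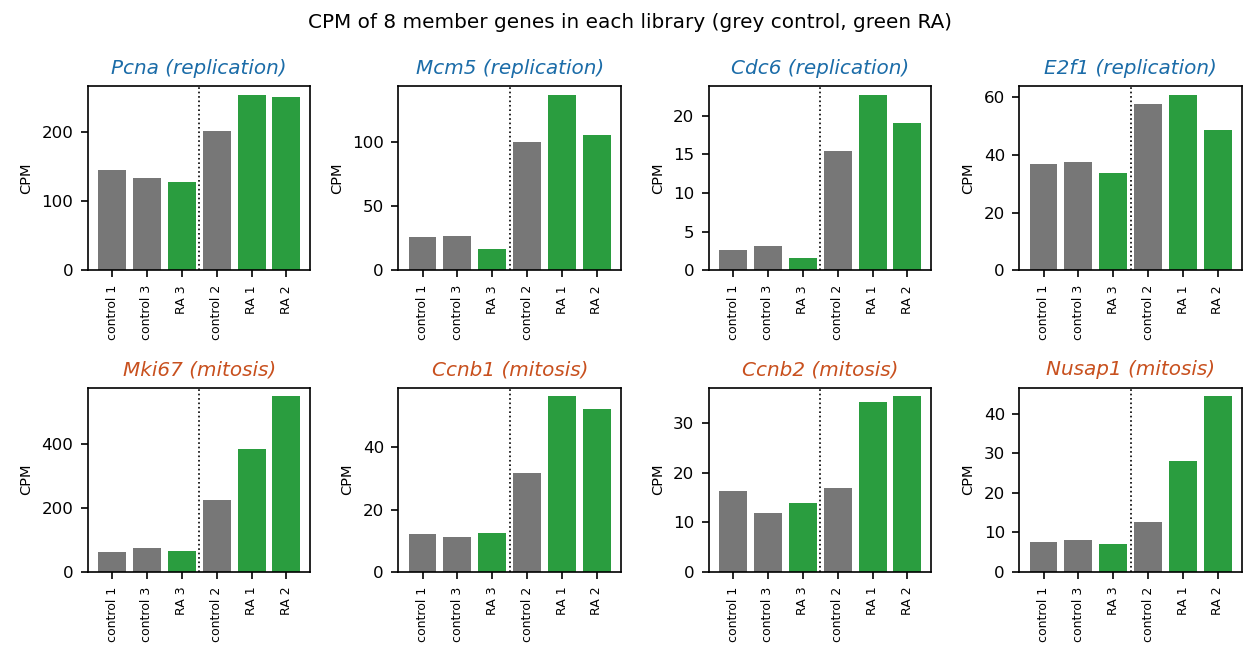
Level in CPM (bars from 0, 1 bar for each library, grey for control and green for RA) of 4 replication genes (upper row) and 4 mitosis genes (lower row), with the second set left of the dotted line and the first set right of it. For Cdc6 control 2 reached 15.5 CPM against 22.7 and 19 CPM in RA 1 and RA 2, while for Nusap1 it reached 12.6 CPM against 28.1 and 44.4 CPM.

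To set replication against mitosis within a library, a score was taken for the replication and for the mitosis genes, the mean over the members of log2 CPM minus the mean of each gene over the 6 libraries. The replication score was −0.78, 0.64 and −0.83 in control 1, 2 and 3, and 1.07, 0.94 and −1.04 in RA 1, 2 and 3. The mitosis score was −0.89, 0.30 and −0.86 in control and 1.18, 1.32 and −1.05 in RA. Both scores thus gave the same division of the libraries, but control 2 stood lower for mitosis than for replication, and RA 1 and RA 2 stood higher. The replication score minus the mitosis score was 0.118, 0.344 and 0.0275 in control, and −0.114, −0.377 and 0.0019 in RA. Every RA library thus lay below every control, although RA 3 and control 3 were nearly equal, and the group means of 0.163 ± 0.163 and −0.163 ± 0.194 (SD, n = 3) differed by less than the sum of these SDs. The order of the groups was also kept without the 10 members whose exons overlap another gene by over 10% of their bases, and without the 5 mitosis genes already transcribed in S phase. In the genes of both processes that are not members, the difference was 0.162, 0.124 and 0.179 in control and −0.258, −0.346 and 0.139 in RA, so that RA 3 lay above control 2 and the groups overlapped. Of the summed CPM of the members, mitosis genes took 39.8%, 41.2% and 42.2% in control and 49.1%, 54.7% and 42.5% in RA. Without Mki67 and Pcna, the strongest of each kind, the share was 42.3%, 39.0% and 43.7% in control against 46.9%, 51.3% and 44.7% in RA.

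**Figure D4:**
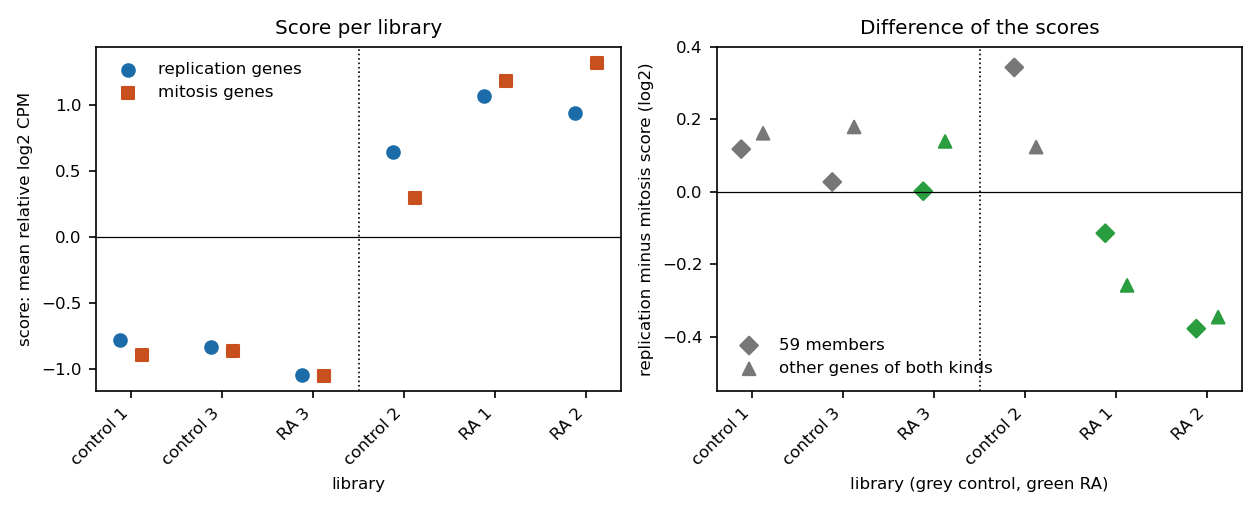
Left, replication score (blue circles) and mitosis score (orange squares) in each library, on the log2 scale around the mean of each gene. Right, replication score minus mitosis score for the 59 members (diamonds) and for other genes of the same processes (triangles), grey for control and green for RA; for the members the controls lie between 0.0275 and 0.344 and the RA libraries between −0.377 and 0.0019.

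Inside the first set, the RA libraries stood above control 2, and more so for mitosis. The median of RA 1 and RA 2 minus control 2 was 0.96 on the log2 CPM scale for mitosis genes (1.95-fold), with 32 of 32 higher, from 0.27 for Mybl2 to 1.48 for Nusap1. For replication genes it was 0.34 (1.26-fold), with 24 of 27 higher, from −0.17 for Cdt1 to 0.87 for Pola1. The 3 lower genes were Cdt1, E2f1 and Gins2. RA 1 and RA 2 were both above control 2 in 32 of 32 mitosis and 22 of 27 replication genes, against 37.4% of all tested genes. Apart from Mybl2 the lowest mitosis gene was Cdc20 at 0.67, and 3 of the replication genes, Mcm10, Pola1 and Ccne2, exceeded it. By role the medians were 0.17 for the G1/S regulators, 0.27 for chromatin behind the fork, 0.36 for the helicase and for the fork, and 0.54 for nucleotide supply. For mitosis they were 0.84 for cyclins and Cdk1, 0.86 for kinases and passengers, 0.94 for the spindle checkpoint, 0.85 for chromosome structure and transcription, 1.06 for spindle and cytokinesis, and 1.23 for the kinetochore. Each rests on 1 control library and has no replicate check on that side. Marker sums also moved inside this set. In control 2, RA 1 and RA 2, mesenchymal markers summed to 4543, 3537 and 2300 CPM and osteoclast markers to 183.9, 358.5 and 289.5 CPM. Macrophage markers summed to 21700, 20510 and 21160 CPM in these libraries, and the part of these cells in the medians was not tested. The RA libraries of the set also differed, as RA 1 lay above RA 2 in 18 of 27 replication genes and RA 2 above RA 1 in 24 of 32 mitosis genes.

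In the second set the direction was the opposite, and smaller. RA 3 minus control 1 and control 3 had a median of −0.18 for replication and −0.12 for mitosis genes, and RA 3 lay below both controls in 19 of 27 and 20 of 32 genes, against 41.2% of all tested genes. The lowest values were −0.84 for Ttk and −0.78 for Rrm2, and the highest 0.22 for Rfc4 and 0.19 for Hmmr, a spindle protein. Of the exon bases of Rfc4, 12.7% overlap Eif4a2 on the opposite strand, which had 18670 counts over all libraries against 624 for Rfc4. With the set as a covariate in edgeR's quasi-likelihood test, 0 members were called against 1.54% of all genes, with 6 members under an unadjusted p of 0.05, against 15.1% of all genes. A term for the difference of the RA effect between the sets, added after the values were known, was past an adjusted p of 0.05 for 0 of 13842 genes in edgeR's test. It rests on 1 control library in the first set and 1 RA library in the second, and on sets drawn from these data, so that its unadjusted p (under 0.05 for 3.74% of all genes, 14 of 27 replication and 31 of 32 mitosis genes) is no support for a difference between the sets. As values, the difference between the sets was wider among RA libraries, with medians of 2.12 for replication and 2.33 for mitosis genes, than among controls, with 1.54 and 1.23.

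**Figure D5:**
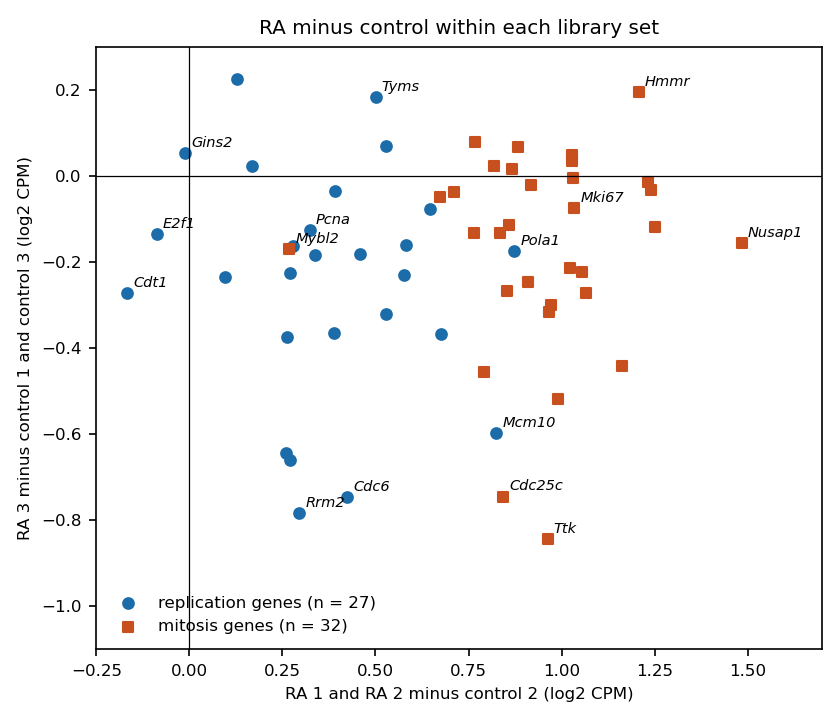
RA minus control for each member on the log2 CPM scale, inside the first set (horizontal axis, RA 1 and RA 2 minus control 2) and inside the second set (vertical axis, RA 3 minus control 1 and control 3), blue circles for the 27 replication and orange squares for the 32 mitosis genes. Mitosis genes lie to the right, at a median of 0.96 against 0.34 for replication genes, and 47 of 59 points lie below 0 on the vertical axis.

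Members with and without the promoter motifs were then set side by side. Inside the first set, RA minus control had a median of 0.97 on the log2 scale for the 18 mitosis genes with a CHR and 0.97 for the 8 without, and of 0.39 for the 9 replication genes with an E2F site and 0.31 for the 14 without. Of the CCAAT box, the 14 replication genes with it had a median of 0.36 against 0.17 for the 9 without, and also a wider difference between the sets (1.98 against 1.37), while the 19 mitosis genes with it had 0.97 against 0.99 for the 7 without. No test was made of these differences. Nusap1 and Mybl2, the ends of the mitosis range, held none of the 3 motifs in their windows.

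The other genes of both processes were also higher in the first set, with smaller medians than the members. Of 48 further replication genes, 45 did not overlap between the sets and were higher in the first (23.4% of all genes), with a median difference of 1.07 on the log2 scale, and the median fitted log2 fold change after RA was 0.47. Of 77 further mitosis genes, 72 were higher in the first set, with a median of 1.69, and the median after RA was 1.01. By edgeR's quasi-likelihood test 0 of either list were called for RA against control, while 0 and 6 had an unadjusted p under 0.05, against 5.25% of all genes. DESeq2 and the likelihood ratio test called 0 of either list too, with 1 and 0 replication genes and 23 and 18 mitosis genes at an unadjusted p under 0.05, against 5.94% of all genes by DESeq2 and 4.96% by the likelihood ratio test. The smallest p of each was that of Dbf4, which activates the Cdc7 kinase at origins (0.76 ± 0.36, SE, n = 3 against 3, edgeR adjusted p = 0.795), and of Ncapg2, a condensin subunit (0.56 ± 0.17, edgeR adjusted p = 0.743). Ncapg2 stood at 30.1, 35.7 and 45.5 CPM in control and 56.5, 53.8 and 53.4 CPM in RA, and did not overlap between treatments. Of the 77 further mitosis genes, 2 were higher after RA without overlap, against 5.71% of all genes. Among 17 genes for pocket proteins, E2F and DP factors and the MuvB core, 9 were higher and 1, E2f5, lower in the first set without overlap, against 23.4% and 24.4% of all genes, with a median of 0.26, and 0 were called for RA against control (smallest edgeR adjusted p 0.795, 0 with an unadjusted p under 0.05 by this test, DESeq2 or the likelihood ratio test, and 0 called by the latter ones). The higher ones included E2f7 and E2f8, late repressors of E2F targets, with 2.25 and 2.34 on the log2 scale, and the pocket protein gene Rbl1 with 1.64, whereas Rb1 and Rbl2 differed by −0.12 and −0.23 and overlapped. Lin54, the MuvB subunit that binds the CHR, had the smallest p of this list, with a fitted log2 fold change after RA of 0.62 ± 0.34 (SE, n = 3 against 3, edgeR adjusted p = 0.795).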

How the data were processed

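The authors deposited raw counts of reads per gene, 1 table for each library. Bowtie2 2.2.3 and the build mm10 are named in the submitters' processing notes. The counting program, its strand setting and the annotation are not given in the sources used here. Libraries were grouped by their labels. Counts were tested in R 4.3.3 with edgeR 4.0.16 (TMM scaling, filterByExpr, quasi-likelihood F test, 13842 genes) and adjusted by Benjamini-Hochberg over all genes tested, calls needing an adjusted p under 0.05 and 1.5-fold. Log2 CPM used a prior count of 2, and CPM per kb the exon length of GENCODE M21. The test was checked on simulated data drawn without a division of the libraries into sets. That check therefore does not show how the test behaves with such a division. Named genes were the strongest per kb and the largest log2 fold change of each role, the widest spread of each kind, and textbook phase markers. Members, lists and the division of the libraries were chosen with earlier results of these data known. With 3 counts as floor, 0.160 to 0.210 CPM could be seen, counting error only. Alternatives were leaving out each library, a replicate block, the set as covariate, DESeq2 1.42.0, edgeR's likelihood ratio test, other scalings, filters and thresholds. No replicate pair agreed within sampling noise (chi-square over its degrees of freedom at least 4.56).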

Additional observations from a re-analysis of the deposited data

How the results depend on the processing

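The number of called members stayed at 0 under every alternative tried except an unadjusted p, which gave 3. Over all genes, 6 were called for RA against control, and 213 (103 higher, 110 lower after RA) with the set as covariate, 20 without a filter on low counts, 136 (98 higher, 38 lower) by DESeq2, 134 (93 higher, 41 lower) by the likelihood ratio test and 491 (295 higher, 196 lower) by unadjusted p, against 5 higher and 1 lower in the fit reported. Leaving out 1 library each gave 0 to 6. Scaling by library size gave 6 higher and 0 lower, and moved the median of all genes from −0.02 to 0.03. The smallest adjusted p of a member was 0.469 by DESeq2 and 0.647 by the likelihood ratio test. The medians of the members kept their sign in every edgeR fit that gave them, and were 0.79 and 1.24 for replication and mitosis by DESeq2. Leaving out 1 library moved them from 0.42 to 1.52 for replication, from 0.84 to 1.80 for mitosis and from −0.59 to −0.28 for replication minus mitosis, while the differences between the sets ran from 1.78 to 2.06 and from 1.72 to 2.22. With the set as covariate, the log2 fold change turned below 0 for 7 of the 59 members, to −0.14 for Mcm5, −0.22 for Cdt1, −0.18 for Rrm2, −0.13 for Uhrf1, −0.11 for E2f1, −0.026 for Mcm2 and −0.056 for Fen1. Leaving out 1 library, Cdt1 ran from −0.14 (without RA 1) to 0.90 (without control 2), also turning without control 3 (−0.05), and E2f1 from −0.074 (without RA 1) to 0.38 (without control 2); the cause was not tested. Same-numbered libraries of the groups had correlated deviations of −0.51, 0.34 and 0.57, so the numbers were not taken as pairs; with a replicate block 4 genes and 0 members were called, and 13 members had an unadjusted p under 0.05 against 6.23% of all genes (smallest adjusted p 0.715). Each set has 1 library in one arm, which limits what the differences inside a set can show.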
